A study of Drosophila melanogaster with 6 samples.

Results

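The proteasome subunit genes of Drosophila melanogaster were examined in imaginal leg discs at 2h APF, the prepupal stage 2 h after puparium formation, and in leg discs of wandering L3 larvae (wL3). The genes were taken by symbol, as those starting with Rpn or Rpt and a digit, with Prosalpha or with Prosbeta, and numbered 48 of the 15185 genes that could be counted. Of these, 32 carry the plain symbol of a proteasome subunit, 7 of the 20S alpha ring, 7 of the 20S beta ring, 10 of the 19S base and 8 of the 19S lid. The other 16 are paralogs, copies of a subunit gene whose symbol carries an R or T, many of them described from the testis. Among these, Prosalpha1R was at the level of a subunit gene and is summed with Prosalpha1 where stated. Sem1, the smallest lid protein, falls outside the rule by its symbol and is not counted among the 32.

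Leg discs are folded epithelial sacs in the larva that turn into the legs of the adult fly. From whole discs, polyA+ RNA was sequenced in 3 libraries at 2h APF and in 3 libraries at wL3, and the animals of both stages had the genotype white [1118], with no other allele and no treatment. The protocol deposited for the extraction names embryos, whereas the tissue given for each sample and the methods of the study speak of leg discs, and this was followed. How many animals were pooled in a library, and whether the replicates are separate pools, was not given in the sources used here, so the p-values measure the spread between these libraries, which may be technical. In whole discs, fewer cells of a type and less RNA per cell cannot be told apart.

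The proteasome is the protease that degrades proteins tagged with ubiquitin chains. Its 20S core is a barrel of stacked rings, in which the outer alpha rings form the gate and the inner beta rings hold the proteolytic sites. The 19S particle caps the barrel, where its base binds and unfolds the substrate with a ring of ATPases (the Rpt proteins) and its lid removes the ubiquitin chain. In insect metamorphosis, ubiquitin-dependent degradation accompanies the removal of larval tissues and the turnover of regulatory proteins in tissues that are reshaped.

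The estimated counts summed to between 24395318 and 30880112 per library at 2h APF and to between 27514509 and 33373176 at wL3. Each of the 32 subunit genes had between 898 and 14600 counts in every library. The stages differed widely, since 67.5% of the 8940 genes tested passed the threshold of an adjusted p under 0.05 (edgeR's quasi-likelihood test, adjusted by the method of Benjamini and Hochberg), 30.6% being higher and 36.9% lower at 2h APF. Transcripts of other tissues differed too. The summed level of 7 muscle markers was 45.8 to 47.5 TPM (a share of all transcripts, corrected for transcript length) at 2h APF against 60.1 to 213 TPM at wL3, that of 5 hemocyte markers 6.35 to 9.59 TPM at 2h APF against 50.5 to 109 TPM at wL3, and that of 5 salivary gland markers 0.718 to 1.18 TPM at 2h APF against 187 to 548 TPM at wL3. For 6 fat body markers the ranges were 98.9 to 403 TPM at 2h APF and 23.7 to 2247 TPM at wL3, and for 12 leg disc genes 900 to 912 TPM at 2h APF and 942 to 951 TPM at wL3. The leg disc gene Distal-less (Dll) was at 117 TPM at 2h APF and at 158 TPM at wL3, so transcripts of the labelled tissue were detected at both stages. Of the 12 leg disc genes, 3 were called higher at 2h APF, 5 lower (Dll among them) and 4 neither. Among the muscle markers, Tm2 was at 0 at 2h APF and Mhc at 0.0256 TPM, but Act57B (27.7 TPM at 2h APF and 58.4 TPM at wL3) and sls (15.6 TPM at 2h APF and 17.1 TPM at wL3) were not called and made up most of the sum at 2h APF, and among the hemocyte markers Hml was at 0.0305 TPM there. The part of these tissues in the values of the proteasome genes was not tested.

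Genes of the 19S particle were higher at 2h APF, each by a modest amount, whereas most genes of the 20S core were not called. All 18 of the 19S genes under the symbol rule rose, 10 of 10 in the base and 8 of 8 in the lid, against 5 of 14 in the core, and none of the 32 subunit genes fell (edgeR's quasi-likelihood test, adjusted p under 0.05, with 30.6% of all genes tested called higher). Sem1, a lid protein outside the rule, was not called (log2 fold change -0.02, adjusted p = 0.775, edgeR). The core count takes Prosalpha1 without Prosalpha1R. No subunit gene changed by more than 1 log2 unit, a size at which 9.73% of all genes were called higher and 8.9% lower. The median log2 fold change was 0.26 in the base, 0.21 in the lid, 0.09 in the beta ring and 0.07 in the alpha ring, against -0.045 over all genes. In CPM (counts scaled to library size, here after TMM scaling), every 2h APF library was above every wL3 library for 16 of the 18 genes of the 19S particle and for 5 of the 14 genes of the core, beside 33.3% of all genes tested. The reverse, every 2h APF library below every wL3 library, held for 0 of the 32 subunit genes and for 40% of all genes. The difference between the particles was not tested as such, and is given below as a ratio in each library.

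**Figure D1:**
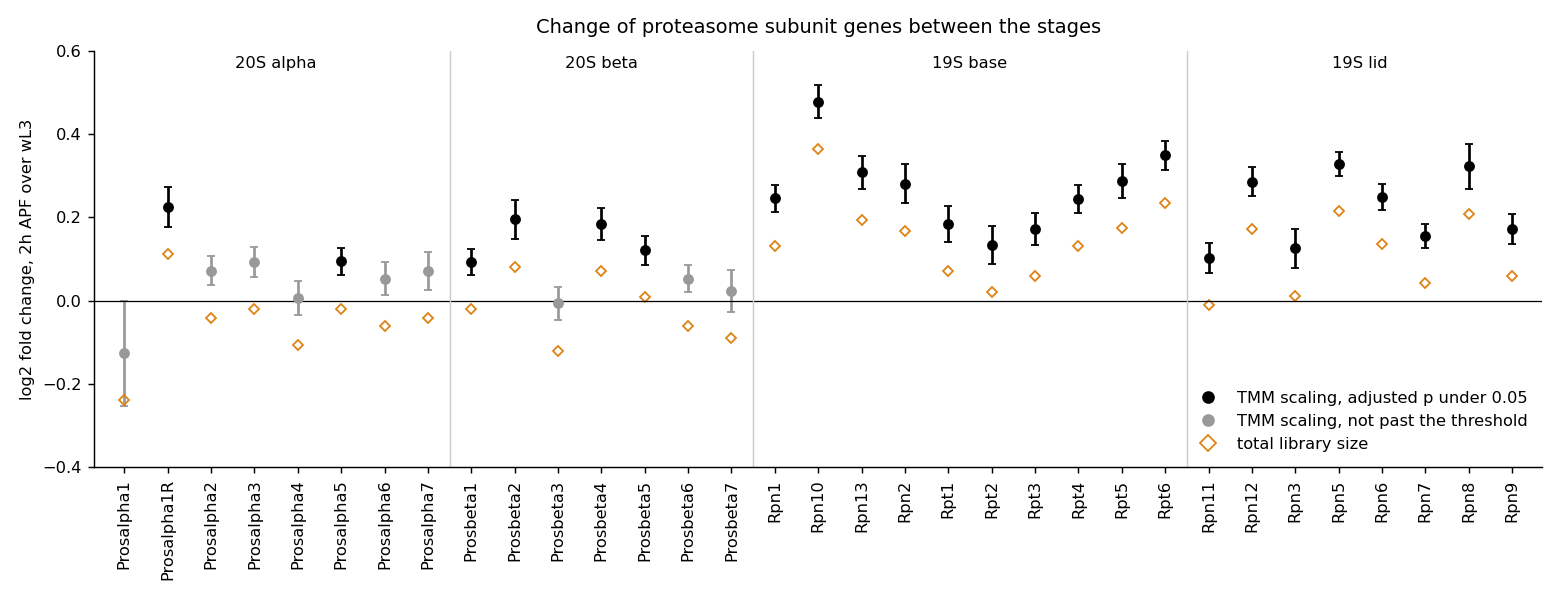
The log2 fold change of each subunit gene and of Prosalpha1R, 2h APF over wL3, by ring and subcomplex, with bars of 1 standard error around the values scaled with TMM (black, adjusted p under 0.05; grey, not past the threshold) and with diamonds for the values scaled to total library size. All plotted genes of the 19S base and lid lie above 0 with TMM, with Rpn10 highest at 0.48, and Rpn11 falls just below 0 with total library size. Sem1 is not plotted. All 7 genes of the alpha ring also lie below 0 with total library size, as do Prosbeta1, Prosbeta3, Prosbeta6 and Prosbeta7 (Prosalpha1R stays above 0).

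The size of these changes depended on how the libraries were scaled, and is therefore also given relative to all genes. With TMM the median of all genes was at -0.045, and with total library size it was at -0.16. Relative to that median, the base lay 0.31 higher, the lid 0.26, the beta ring 0.14 and the alpha ring 0.12 on the log2 scale, with either scaling. A change of scaling alone moves all genes by nearly the same amount, so this agreement was fixed in advance. Across the 19 ways in which the data were fitted, the base lay between 0.29 and 0.35 above the median of all genes, the lid between 0.24 and 0.28, the beta ring between 0.11 and 0.17 and the alpha ring between 0.087 and 0.15. These ranges thus come from the fits that changed more than the scaling, such as the filter or the libraries left out. With total library size, 11 of the 18 genes of the 19S particle and 0 of the 14 genes of the core rose, while Prosalpha4 and Prosbeta3 fell. The whole set of genes tested shifted the same way, with fewer called higher and more called lower than with TMM. These counts therefore do not separate a change in the proteasome genes from that shift.

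In the alpha ring, whose N-terminal tails close the entrance of the barrel, only 1 of 7 genes, Prosalpha5, was called with Prosalpha1 taken alone. Prosalpha1 summed with Prosalpha1R was called too, as given below. Prosalpha5 had 311, 307 and 312 TPM in 2h APF replicates 1, 2 and 3, against 298, 287 and 292 TPM in wL3 replicates 1, 2 and 3. The stages did not overlap, yet the log2 fold change was only 0.09 (SE 0.034, adjusted p = 0.0417 by edgeR's quasi-likelihood test with TMM), and it was -0.020 with total library size. Its call was lost on leaving out any library but wL3 replicate 1, with adjusted p between 0.0557 and 0.135 (edgeR). Prosalpha3 was the gene just outside the threshold, at 0.09 (adjusted p = 0.0577, edgeR), with 319, 319 and 326 TPM at 2h APF and 311, 298 and 299 TPM at wL3. Prosalpha2, Prosalpha6 and Prosalpha7 had log2 fold changes of 0.07, 0.05 and 0.07, and for Prosalpha4 the value was 0.01 (SE 0.041, adjusted p = 0.908, edgeR) with overlapping stages, 307, 289 and 302 TPM at 2h APF and 311, 292 and 294 TPM at wL3.

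Prosalpha1 was the member of its ring whose value ran against the others, and it cannot be read without its neighbour on arm 2R, Prosalpha1R. The 2 genes are near copies, and a target of 885 bases in each of them carried the same counts in every library, so that reads could be divided between them. On its own, Prosalpha1 had 74.2, 55.7 and 66.6 TPM at 2h APF and 74.2, 79.8 and 61.7 TPM at wL3, and the stages overlapped (log2 fold change -0.13, SE 0.13, adjusted p = 0.399, edgeR). Prosalpha1R had 235, 246 and 253 TPM at 2h APF against 210, 202 and 219 TPM at wL3, which gave 0.23 (SE 0.049, adjusted p = 0.00524, edgeR) with TMM and 0.11 (adjusted p = 0.0556, edgeR), not called, with total library size. It held 76.0% to 81.5% of the pair's level at 2h APF and 71.7% to 78.0% at wL3, and these ranges overlapped. Summed as 1 gene, the pair stood at 309, 301 and 320 TPM at 2h APF against 284, 282 and 281 TPM at wL3, with no overlap and a log2 fold change of 0.14 (SE 0.035, adjusted p = 0.00977, edgeR). This sum brought the pair to the level of the other alpha genes, between 249 TPM for Prosalpha6 and 344 TPM for Prosalpha2 at 2h APF.

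In the beta ring, 4 of 7 genes rose with TMM scaling, among them all 3 that carry the proteolytic sites. Prosbeta2, which bears the trypsin-like site, had 331, 338 and 350 TPM at 2h APF against 311, 288 and 296 TPM at wL3. All 3 of its prepupal libraries were above the larval ones, and its log2 fold change of 0.20 was the highest of the ring (SE 0.048, adjusted p = 0.00891, edgeR's quasi-likelihood test). Prosbeta5, with the chymotrypsin-like site, had 288, 276 and 283 TPM at 2h APF and 267, 253 and 261 TPM at wL3 (log2 fold change 0.12, adjusted p = 0.0178, edgeR). Prosbeta1, with the caspase-like site, had 330, 316 and 323 TPM at 2h APF and 309, 305 and 301 TPM at wL3, for a log2 fold change of 0.09 (adjusted p = 0.0347, edgeR) with TMM that turned to -0.021 with total library size. Of the beta genes without a proteolytic site, Prosbeta4 rose by 0.18 on the log2 scale (SE 0.039, adjusted p = 0.00464, edgeR), and it had the highest level of the core at 2h APF, at 345, 352 and 365 TPM there against 311, 317 and 313 TPM at wL3. Prosbeta6 and Prosbeta7 had values of 0.05 and 0.02. Prosbeta3 was the lowest of the ring, with 269, 279 and 278 TPM at 2h APF and 283, 279 and 272 TPM at wL3 (-0.01, SE 0.040, adjusted p = 0.887, edgeR). These stages overlapped, and its value became 0.038 with DESeq2's size factors.

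The number of core genes called was sensitive to single libraries. It was 9 without wL3 replicate 1, 3 without 2h APF replicate 1 or 2, and 2 without 2h APF replicate 3, wL3 replicate 2 or wL3 replicate 3, against 5 with all libraries. Over all genes, 2480 to 2864 were called higher when 1 library was left out, against 2735 with all libraries. Prosbeta1 was lost on leaving out any library but wL3 replicate 1 (adjusted p between 0.0612 and 0.128, edgeR), and Prosbeta5 without 2h APF replicate 3, wL3 replicate 2 or wL3 replicate 3 (0.0633 to 0.0837). Prosalpha2, Prosalpha3, Prosalpha7 and Prosbeta6 were called only without wL3 replicate 1 among these fits, with adjusted p between 0.00409 and 0.0312 (edgeR). Replicate 1 was also the wL3 library with the lowest summed muscle, hemocyte and fat body markers, at 60.1, 50.5 and 23.7 TPM. The part of these markers in the calls was not tested.

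**Figure D2:**
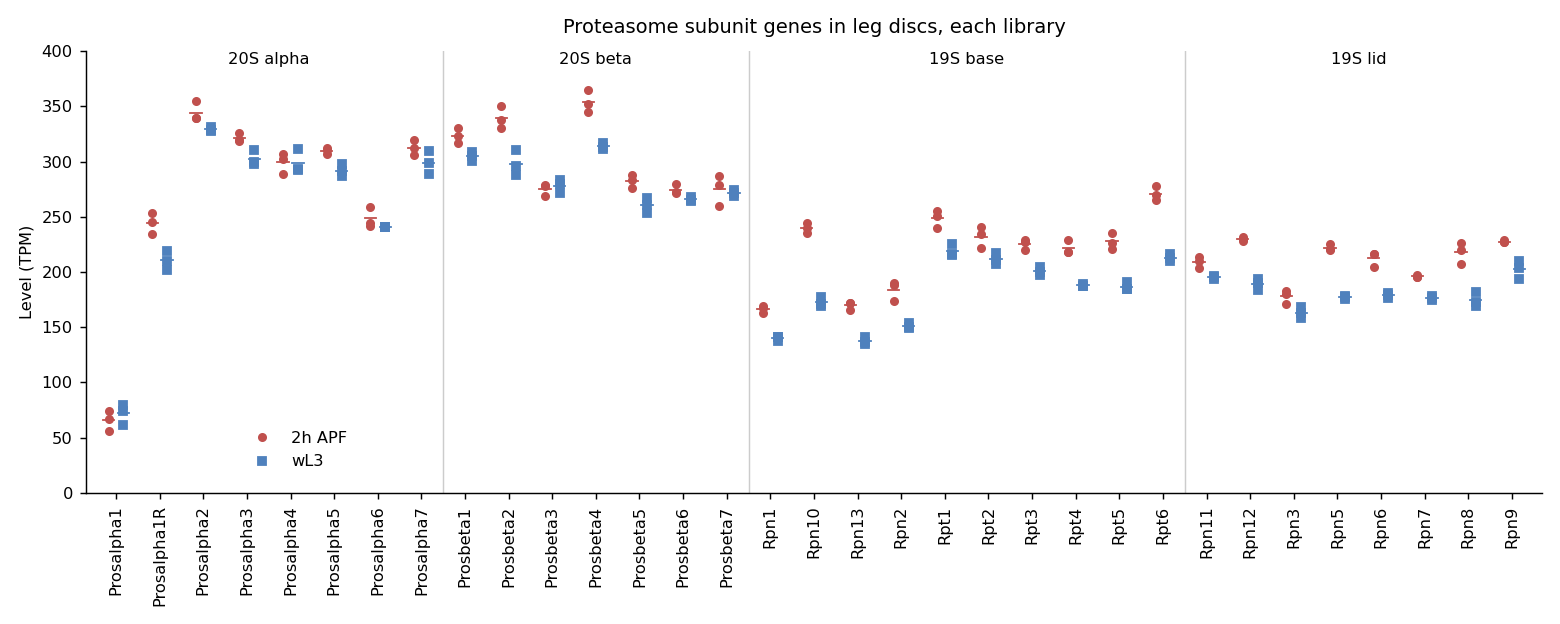
Level of each subunit gene and of Prosalpha1R in TPM (linear axis from 0), with 1 point per library (2h APF left, wL3 right of each gene) and a short line at the mean of each stage. The core genes other than the split pair Prosalpha1 and Prosalpha1R lie between 240 and 365 TPM at both stages and the plotted 19S genes below 280 TPM, with the stages apart for each of the latter. Sem1 is not plotted.

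In the base, the ubiquitin receptors and the scaffolds that hold them rose together with the ATPases. Rpn10, a receptor that binds ubiquitin chains, had the largest change of all subunit genes, with 235, 244 and 240 TPM at 2h APF against 177, 171 and 169 TPM at wL3. Its lowest prepupal library was far above its highest larval one, and the level was 39.3% higher at 2h APF (log2 fold change 0.48, SE 0.039, adjusted p = 3.94e-05, edgeR's quasi-likelihood test). Its call held under all 18 alternatives, with log2 fold changes between 0.36 and 0.55. Rpn13, the other dedicated receptor, had 165, 172 and 172 TPM at 2h APF against 142, 134 and 136 TPM at wL3 (log2 fold change 0.31, adjusted p = 0.000435, edgeR). Rpn1, a large scaffold on which shuttle factors dock, had 163, 167 and 169 TPM at 2h APF against 141, 138 and 141 TPM at wL3 (0.25, adjusted p = 0.00043, edgeR). Rpn2, the related scaffold that holds Rpn13, had 174, 188 and 190 TPM at 2h APF against 154, 149 and 151 TPM at wL3 (0.28, adjusted p = 0.00139, edgeR). For each of these 4 genes the stages did not overlap.

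The 6 ATPases form 1 ring in equal numbers, and their log2 fold changes ranged from 0.13 to 0.35. Rpt6 was highest, with 265, 270 and 278 TPM at 2h APF against 216, 210 and 213 TPM at wL3, a level 27.4% higher at 2h APF (log2 fold change 0.35, SE 0.035, adjusted p = 0.000118, edgeR's quasi-likelihood test). Rpt5 and Rpt4 followed at 0.29 and 0.24, with adjusted p-values of 0.000597 and 0.000635 (edgeR), and both kept their call under all 18 alternatives. Rpt1 and Rpt3 had log2 fold changes of 0.18 and 0.17 (adjusted p = 0.00742 and 0.00533, edgeR). Rpt2, one of the ATPases whose tail opens the gate of the core in yeast, had the smallest change of the base. It had 222, 234 and 240 TPM at 2h APF and 217, 211 and 207 TPM at wL3 (0.13, SE 0.046, adjusted p = 0.0365, edgeR), without overlap in TPM but with overlap in CPM. Its call was lost on leaving out 2h APF replicate 2 or 3 or wL3 replicate 2 or 3, with adjusted p between 0.0981 and 0.124 (edgeR).

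All 8 lid genes under the symbol rule rose, most of them scaffold proteins with a PCI domain that assemble around the deubiquitinase. The lid protein Sem1, outside that rule, was not called. Rpn5 led with 220, 221 and 225 TPM at 2h APF against 178, 175 and 177 TPM at wL3. The replicates of each stage lay close together and far from the other stage, and the log2 fold change was 0.33 (SE 0.029, adjusted p = 6.09e-05, edgeR's quasi-likelihood test). Rpn8, the partner of the deubiquitinase that lacks its activity, had 207, 220 and 227 TPM at 2h APF against 182, 173 and 169 TPM at wL3 (0.32, adjusted p = 0.00144, edgeR). Rpn12, which joins the lid late in its assembly in yeast, had 232, 228 and 230 TPM at 2h APF against 194, 184 and 190 TPM at wL3 (0.29, adjusted p = 0.000301, edgeR). Rpn6, which braces the lid against the alpha ring, had 216, 205 and 217 TPM at 2h APF against 181, 176 and 180 TPM at wL3 (0.25, adjusted p = 0.000389, edgeR). In none of these genes did the stages overlap. Rpn9 and Rpn7 rose by 0.17 and 0.16 (adjusted p = 0.0043 and 0.00241, edgeR).

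Rpn11, the metalloprotease that cuts the ubiquitin chain off the substrate, had the smallest change of the lid. It had 204, 210 and 214 TPM at 2h APF and 197, 194 and 196 TPM at wL3, and its log2 fold change of 0.10 (SE 0.036, adjusted p = 0.0381, edgeR's quasi-likelihood test) became -0.011 with total library size. Rpn3 was the called subunit gene nearest to the threshold, at 0.13 (adjusted p = 0.0494, edgeR), with 171, 183 and 180 TPM at 2h APF and 168, 163 and 158 TPM at wL3. The calls of Rpn11 and Rpn3, as that of Rpt2, were lost on leaving out any 1 of 4 libraries (2h APF replicate 2 or 3, wL3 replicate 2 or 3), with adjusted p between 0.0888 and 0.123 for Rpn11 and between 0.123 and 0.162 for Rpn3 (edgeR). The other 15 genes of the 19S particle remained called when any 1 library was left out. Of the 18 genes, 11 were called under every alternative (Rpn1, Rpn2, Rpn5, Rpn6, Rpn8, Rpn10, Rpn12, Rpn13, Rpt4, Rpt5 and Rpt6), compared with 0 of the 5 core genes called.

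Summed over its genes, with Prosalpha1R counted together with Prosalpha1 here and in the ratios, the 20S core stood at 4226, 4232 and 4353 TPM in 2h APF replicates 1, 2 and 3, against 4106, 4005 and 4002 TPM in wL3 replicates 1, 2 and 3. The sum was 5.76% higher at 2h APF. The 19S particle stood at 3797, 3889 and 3953 TPM at 2h APF against 3337, 3238 and 3257 TPM at wL3, a sum 18.4% higher at 2h APF. Sem1, outside the symbol rule, is in none of these sums or ratios. The ratio of the 19S sum to the 20S sum within a library does not depend on how libraries are scaled to one another. It was 0.899, 0.919 and 0.908 at 2h APF against 0.813, 0.809 and 0.814 at wL3 (mean 0.909 ± 0.010 at 2h APF against 0.812 ± 0.0028 at wL3, SD, n = 3 each), 11.9% higher at 2h APF with no overlap between the stages. Leaving out any 1 library kept the ratio between the stages within 1.11 and 1.13, and CPM in place of TPM gave 1.12. Relative to the core, the base was 13.6% higher and the lid 9.88% higher at 2h APF. Base over lid was 1.27 to 1.31 at 2h APF and 1.24 to 1.26 at wL3. The subunit genes together took up 0.815% ± 0.014 of all transcripts at 2h APF and 0.732% ± 0.011 at wL3 (SD, n = 3 each). The smallest p that an exact permutation test of 3 libraries in each stage can reach is 0.1, and these sums are given without a test.

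**Figure D3:**
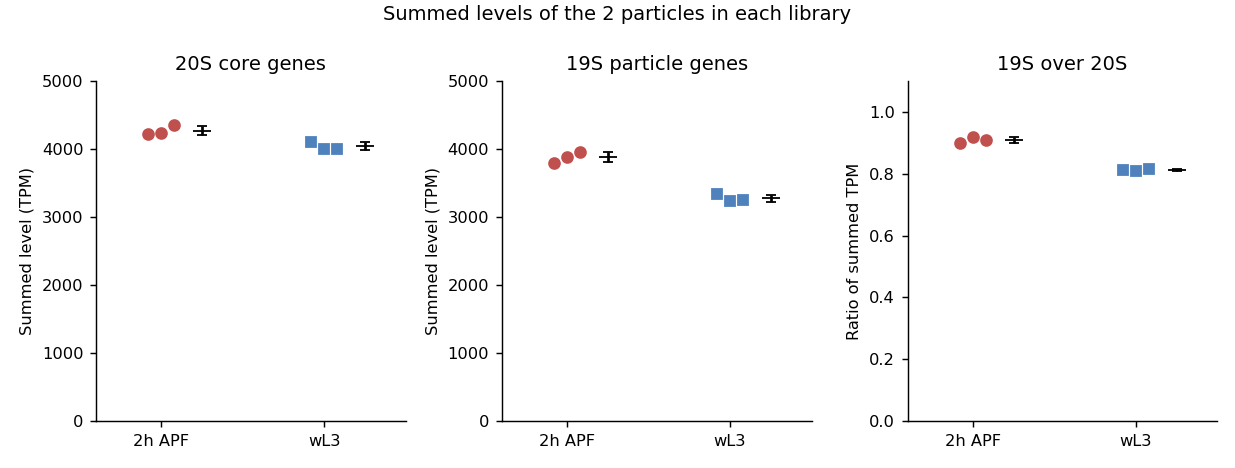
Summed level of the core genes and of the 19S genes in TPM, and the ratio of the 19S sum to the 20S sum, in each library (points, 2h APF left and wL3 right), with the mean and SD of each stage beside them (n = 3); all axes start at 0. The 2h APF libraries lie above the wL3 libraries in each panel, with ratios of 0.899 to 0.919 at 2h APF and 0.809 to 0.814 at wL3. Sem1 is not in the 19S sum.

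Among the 32 subunit genes taken by symbol, levels were alike within each particle, at both stages. With Prosalpha1 and Prosalpha1R taken as 1 gene, the 14 core genes had mean levels between 249 and 354 TPM at 2h APF (median 310, coefficient of variation across genes 10.1%) and between 241 and 329 TPM at wL3 (median 295, 8.11%). The 18 genes of the 19S particle lay between 166 and 271 TPM at 2h APF (median 222, 12.9%) and between 137 and 219 TPM at wL3 (median 183, 13.0%). Their order was led by Rpt6 at 2h APF and by Rpt1 at wL3, with Rpn1 and Rpn13 lowest at these stages. The lid protein Sem1 is not among these 18 genes and was higher than all of them, at 363 TPM at 2h APF and 377 TPM at wL3. The 13 genes of the translation factor eIF3, another large complex, were more unequal, with a coefficient of variation of 28.5% at both stages. The proteasome genes also ranked high among 8939 genes that passed the filter on low counts. At 2h APF the core genes other than Prosalpha1 lay between percentiles 94.5 and 96.2 and the 19S genes between percentiles 91.4 and 94.9. Between replicate libraries, a subunit gene varied by a median of 2.35% of its mean at 2h APF and 1.92% at wL3. Over all genes tested the median was 5.66% at 2h APF and 4.52% at wL3. Most of those genes had lower levels, and no genes of like level were compared, so the smaller spread is not shown to be particular to the proteasome. By chromosome arm, the 32 subunit genes were on 2L (4), 2R (10), 3L (5) and 3R (9) and on X (4).

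Several subunit genes have more than 1 annotated transcript, and Rpn6 and Rpn13 are described here, chosen after their values were seen. Rpn6 was read from a transcript of 1772 bases, at 148, 139 and 143 TPM at 2h APF against 124, 118 and 124 TPM at wL3, and from one of 1642 bases, at 68.2, 65.6 and 74.1 TPM at 2h APF against 56.3, 57.3 and 55.3 TPM at wL3. Both rose in a fit of single transcripts, the longer by 0.20 on the log2 scale (adjusted p = 0.0065, edgeR) and the shorter by 0.27 (adjusted p = 0.00891, edgeR). Most of Rpn13 came from a transcript of 1393 bases, at 107, 122 and 122 TPM at 2h APF against 92.5, 84.2 and 88.9 TPM at wL3 (0.38, adjusted p = 0.00894, edgeR). Of the 66 transcripts of all members, 47 passed the filter in that fit, and 3 of these repeated the values of another. Of the 44 distinct ones 21 rose and 0 fell, beside 20.3% of the 17601 transcripts tested called higher and 22.3% lower.

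Most paralogs were at or near 0 counts at both stages. Of the 16, 9 had 0 counts in every library (Prosalpha3T, Prosalpha4T2, Prosalpha6T, Prosbeta2R1, Prosbeta4R1, Prosbeta4R2, Prosbeta5R1, Prosbeta5R2 and Rpt4R), where a count of 0 allows up to 3 counts per library. Prosalpha4T1 and Rpn12R had 1 count in a single wL3 library, Prosbeta2R2 had 3, 3 and 3 counts at 2h APF and 3, 1 and 5 at wL3, and Rpn13R had 3, 5 and 16 counts at 2h APF and 5, 7 and 16 at wL3. These 13 genes were under the filter on low counts and were not tested.

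Rpt3R, a paralog of the ATPase gene Rpt3, was 4.73-fold higher at 2h APF, the largest change of any member tested. It had 346, 483 and 434 counts at 2h APF against 142, 83 and 102 at wL3, or 14.9, 18.2 and 14.8 TPM at 2h APF against 4.13, 2.94 and 3.04 TPM at wL3. The lowest prepupal library held more than the highest larval one on both scales, and the log2 fold change was 2.24 (SE 0.17, adjusted p = 3.1e-05, edgeR's quasi-likelihood test), between 2.10 and 2.46 under the 18 alternatives. Rpt3R thus made up 6.34%, 7.39% and 6.08% of the summed level of Rpt3 and Rpt3R at 2h APF, against 1.98%, 1.45% and 1.52% at wL3. Rpt3 itself had 220, 228 and 229 TPM at 2h APF against 205, 200 and 197 TPM at wL3, and remained the main gene at both stages. Nearly all of Rpt3R came from its transcript of 1434 bases. Rpt6R, a paralog of Rpt6, also rose, but from few counts, 11, 23 and 12 at 2h APF against 5, 4 and 8 at wL3 (log2 fold change 1.71, SE 0.48, adjusted p = 0.0156, edgeR). Without 2h APF replicate 2 its log2 fold change was 1.30 (adjusted p = 0.0658, edgeR), and without wL3 replicate 2 it was 1.59 (adjusted p = 0.0579, edgeR). With limma on log2(TPM + 0.5) it was only 0.66 (adjusted p = 0.0219), on a scale that understates the change of low genes. Rpt3R and Rpt6R were the 2 members beyond 1 log2 unit in the edgeR fit with all libraries. The summed level of 21 testis markers was 6.42 to 8.57 TPM at 2h APF and 8.39 to 11.0 TPM at wL3, with mia (3.67 TPM at 2h APF and 6.66 TPM at wL3) and Taf12L (2.06 TPM at 2h APF and 2.01 TPM at wL3) as its main sources, while dj, sa, Mst84Da, Mst84Db, Mst84Dc, Mst84Dd, Mst98Ca, Mst98Cb and ocn were at 0 in every library.

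**Figure D4:**
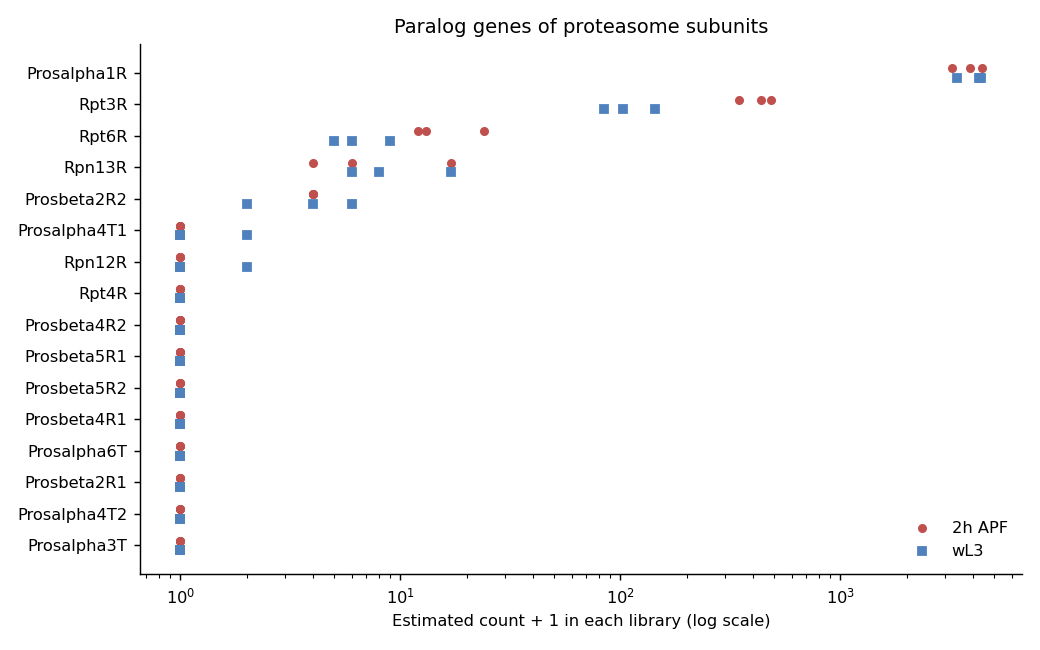
Estimated counts plus 1 of the 16 paralog genes in each library on a log axis (2h APF points above the wL3 points of a gene). Rpt3R lies between 346 and 483 counts at 2h APF and between 83 and 142 at wL3, Prosalpha1R is at the level of a subunit gene at both stages, and 9 paralogs have 0 counts in every library.

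Of 25 genes in 4 lists of factors that assemble, supply, load or regulate the proteasome, 12 rose and 6 fell (edgeR's quasi-likelihood test, beside 30.6% of all genes called higher and 36.9% lower). Of 32 tested genes in 3 lists of other complexes, 7 rose and 12 fell. Over all 7 lists, 19 rose and 18 fell with TMM, and 9 rose and 32 fell with total library size. All genes tested moved in that direction too, with fewer called higher and more called lower with total library size. Among 9 assembly and associated factors, 3 rose and 4 fell. The alternative activator REG, the PA28 gamma protein that caps the core without ATPases, fell most, to 146 ± 6.5 TPM at 2h APF against 218 ± 5.13 TPM at wL3 (SD, n = 3 each; log2 fold change -0.58, adjusted p = 1.06e-05, edgeR). Uch-L5, the deubiquitinase held by Rpn13, fell to 133 ± 4.02 TPM at 2h APF against 185 ± 6.95 TPM at wL3 (-0.45, adjusted p = 6.34e-05, edgeR). CG8858, the ortholog of the proteasome adaptor Ecm29, fell by 0.37 on the log2 scale and CG9588, an ortholog of a base chaperone, by 0.18. Usp14, the deubiquitinase that docks on Rpn1, rose by 0.17, the core chaperone Pomp by 0.16 and the regulator PI31 by 0.15, all 3 with TMM and none with total library size. Pomp also lost its call without 2h APF replicate 2 or 3 or wL3 replicate 2 or 3 (adjusted p between 0.0894 and 0.152, edgeR), and CG9588 without wL3 replicate 1 (0.0955). With DESeq2, CG9588 was not called either (adjusted p = 0.102). Sem1, the smallest lid protein, whose symbol lies outside the rule used for the members, had a log2 fold change of -0.02 (adjusted p = 0.775, edgeR), which turned to 0.029 with DESeq2's size factors. Sem1 was called lower with total library size (-0.13, adjusted p = 0.026, edgeR) and scaled to the 20S counts (-0.10, adjusted p = 0.0334, edgeR).

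The genes that supply ubiquitin split by type. The polyubiquitin genes rose, Ubi-p5E to 586 ± 55.6 TPM at 2h APF against 366 ± 5.37 TPM at wL3 (SD, n = 3 each; log2 fold change 0.68, adjusted p = 0.000148, edgeR) and Ubi-p63E by 0.32 on the log2 scale, to 429 ± 26.6 TPM at 2h APF against 344 ± 12.1 TPM at wL3. RpL40 and RpS27A, in which ubiquitin is fused to a ribosomal protein, fell by 0.17 and 0.18. The ubiquitin-activating enzyme gene Uba1 had a value of 0.02 (adjusted p = 0.549, edgeR) with TMM, and was called in opposite directions by scaling, lower with total library size (-0.092, adjusted p = 0.0398, edgeR) and higher with DESeq2 (0.067, adjusted p = 0.0398). Among 6 genes of shuttle factors and of the segregase that extracts ubiquitylated proteins, 4 rose and 0 fell, namely TER94, the segregase itself (461 ± 6.52 TPM at 2h APF against 324 ± 5.82 TPM at wL3, SD, n = 3 each; 0.51, adjusted p = 9.39e-06, edgeR), the shuttle factors Rad23 (0.38) and Ubqn (0.25), and Ufd1 (0.15), a cofactor of TER94. The call of Ufd1 was lost without 2h APF replicate 2 or 3 or wL3 replicate 2 or 3 (adjusted p between 0.0556 and 0.103, edgeR). With total library size, Ufd1 was not called either (0.040, adjusted p = 0.432, edgeR).

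The transcription factor gene cnc, the fly relative of the mammalian Nrf factors that raise proteasome genes when the proteasome is inhibited, rose by 0.19 on the log2 scale (45.9 ± 1.08 TPM at 2h APF against 40.7 ± 1.69 TPM at wL3, SD, n = 3 each; adjusted p = 0.00302, edgeR). So did its partner maf-S, by 0.19, and rngo, the ortholog of the protease Ddi1 that processes the mammalian factor, by 0.37. Its inhibitor Keap1 had a value of 0.06 and Pngl, the ortholog of the glycanase NGLY1, one of -0.17, neither called. Pngl was called lower in 5 of its alternatives, at -0.23 without 2h APF replicate 1 (adjusted p = 0.00771, edgeR), -0.28 with total library size, -0.25 with upper-quartile factors and scaled to the 20S counts, and -0.17 with the replicate number as a block. With total library size the values of cnc and maf-S were 0.072 and 0.076 and were not called.

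Values for complexes built on the plan of the lid (the COP9 signalosome and eIF3), and for cullin ligases, are given beside it. Their difference from the lid was not tested. In the COP9 signalosome, which removes Nedd8 from cullins and shares the lid's plan of PCI and MPN proteins, 7 of the 8 genes tested fell and 0 rose, with log2 fold changes from -0.14 in CSN7 to -0.26 in CSN5, the subunit that corresponds to Rpn11. CSN7 was not called without wL3 replicate 1 (adjusted p = 0.12, edgeR), with DESeq2 (adjusted p = 0.109) or with RLE factors (adjusted p = 0.0714, edgeR). In eIF3, 2 of 13 rose (eIF3d1 and eIF3j), 3 fell and 8 were not called. With total library size neither eIF3d1 (0.073, adjusted p = 0.086, edgeR) nor eIF3j (0.064, adjusted p = 0.0834, edgeR) was called. Of 11 cullin ligase genes tested, 5 rose (Cul1, Cul3, ago, slmb and SkpA), 2 fell (Cul4 and Roc2) and 4 were not called.

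**Figure D5:**
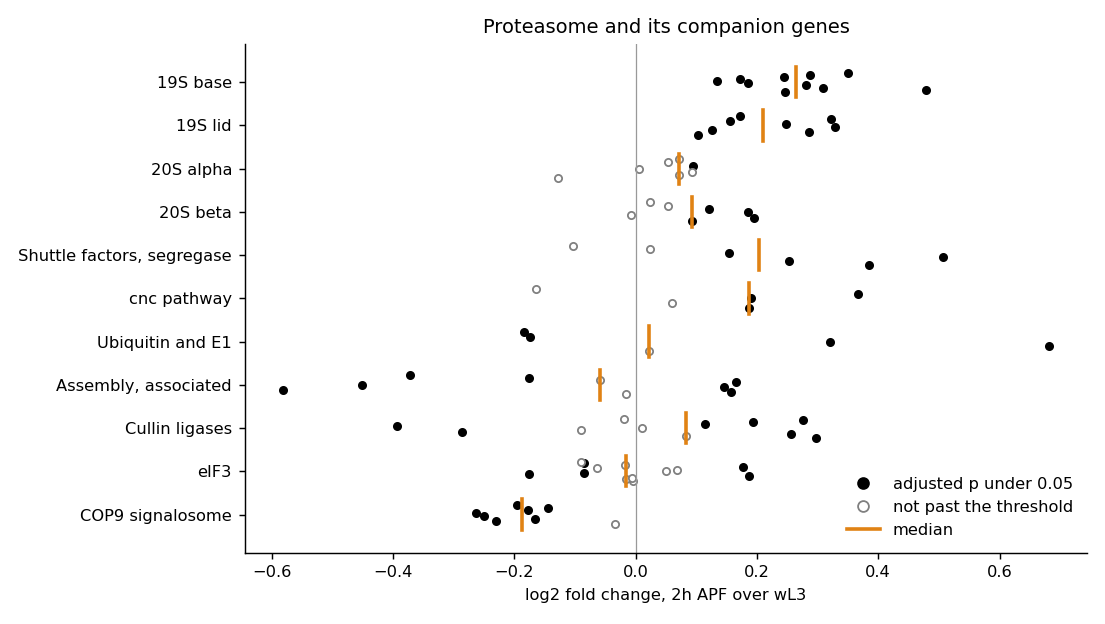
The log2 fold change, 2h APF over wL3 with TMM scaling, of each tested gene of the proteasome and of 7 lists of related genes (filled points, adjusted p under 0.05; open points, not past the threshold; bars, medians). All points of the 19S base and lid lie above 0 (Sem1 is plotted with the assembly and associated factors), and 7 of 8 COP9 points are filled and below 0. With total library size all values shift down, and the median of the alpha ring becomes -0.042 and that of the beta ring -0.021.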

How the data were processed

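Leg discs were profiled by strand-specific polyA+ RNA-seq at 2h APF and wL3, 3 libraries each. The authors assigned paired-end reads with kallisto (tool names per the labels, which give dm3 as build and no versions) to Ensembl 74 transcripts plus lincRNAs, and deposited for every library the length, effective length, estimated count and TPM of 42506 targets, without scaling between libraries.

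Targets were assigned to genes through their FlyBase transcript identifier and the Ensembl annotation BDGP6.54. This placed 27011 targets in 15259 genes, with 96.4% to 96.6% of the counts, and left 2162 identifiers unplaced. Positions are given by chromosome arm only, since the builds differ. Where genes had identical values throughout (54 groups, 128 genes), each group was counted as 1 gene. The estimated counts deposited by the authors were summed per gene, rounded and tested in R 4.3.3 with edgeR 4.0.16 (TMM, filterByExpr, quasi-likelihood test, Benjamini-Hochberg over 8940 genes). Deposited TPM values were summed per gene for levels. The fit was tested on simulated data. Standard errors (SE) are on the log2 scale.

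The members, lists and tests were chosen with earlier results of these data known. Every member and list gene could be named, with full statistics for the largest and smallest change of each subcomplex and for values against its median. Alternatives were DESeq2 1.42.0, RLE factors, upper-quartile factors, total library size, other filters, limma 3.58.1 on log2(TPM + 0.5) and log2(TPM + 0.1), a replicate block, unmatched targets as features, single transcripts and leaving out each library. Scaling to the 20S counts and summing Prosalpha1 with Prosalpha1R were chosen after seeing the data. Replicates differed by more than sampling noise. The depth of 898 counts or more for each subunit gene in each library limits precision less than the spread between libraries. Promoter sequences were not used here. Tables and plots used Python 3.11.15, pandas 2.3.3, numpy 2.4.6 and matplotlib 3.10.9.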

Additional observations from a re-analysis of the deposited data

How the results depend on the processing

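Scaling moved the calls most, and its cause was not tested. With total library size, 13 members rose and 2 fell, 0 of the 20S genes rose and 2 fell, 11 of the 19S genes rose, and 9 genes of the companion lists rose and 32 fell. With upper-quartile factors these were 15 members, 1 gene of the core, 11 of the 19S particle, and 12 and 29 companions. Scaled to the 20S counts, 1 member, a core gene, fell, 2 core genes rose, and 11 and 30 companions rose and fell. With each of these scalings, fewer of all genes tested were called higher and more were called lower than with TMM. The counts of members and companions thus include a shift of the whole set of genes. The number of core genes called was 8 with DESeq2, with RLE factors and with at least 10 counts in every library, and 3 without a filter. It was 2 to 9 on leaving out single libraries. Members beyond 1 log2 unit numbered 1 with at least 10 counts in every library and 1 with limma on log2(TPM + 0.5), with or without a filter, and 1 to 2 on leaving out single libraries, where Rpt6R was the gene lost.

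The median log2 fold change of the alpha ring was -0.042 with total library size, -0.017 with upper-quartile factors and -0.013 scaled to the 20S counts. The last scaling holds the core as a whole near 0 by its design. That of the beta ring was 0.14 with DESeq2 and with RLE factors, -0.021, 0.0047 and 0.0081 with those 3 scalings, and 0.13 with at least 10 counts in every library. The base was at 0.15, 0.18 and 0.18 and the lid at 0.097, 0.12 and 0.13 with those scalings. Leaving out single libraries gave 0.042 to 0.12 for the alpha ring, 0.073 to 0.15 for the beta ring, 0.25 to 0.32 for the base and 0.20 to 0.26 for the lid.

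Among single genes, those that changed sign with total library size were Prosalpha2 (-0.042), Prosalpha3 (-0.021), Prosalpha4 (-0.11), Prosalpha5 (-0.020), Prosalpha6 (-0.061), Prosalpha7 (-0.042), Prosbeta1 (-0.021), Prosbeta6 (-0.061), Prosbeta7 (-0.091), Rpn11 (-0.011) and Uba1 (-0.092). With upper-quartile factors they were Prosalpha2 (-0.016), Prosalpha4 (-0.082), Prosalpha6 (-0.035), Prosalpha7 (-0.017), Prosbeta6 (-0.035), Prosbeta7 (-0.065) and Uba1 (-0.067), and scaled to the 20S counts Prosalpha2 (-0.013), Prosalpha4 (-0.078), Prosalpha6 (-0.033), Prosalpha7 (-0.013), Prosbeta6 (-0.033), Prosbeta7 (-0.063) and Uba1 (-0.064). Scaled to their own sum, core genes must lie on both sides of 0, so those signs give only their place within the core. Prosalpha4 was also at -0.0035 without a filter and at -0.0024 with unmatched targets as features. Prosbeta3 turned to 0.038 with DESeq2 and with RLE factors and to 0.028 with at least 10 counts in every library, and Sem1 to 0.029, 0.029 and 0.019 in the same fits, while it was called lower at -0.13 with total library size and at -0.10 scaled to the 20S counts. On leaving out single libraries, Prosalpha4 ranged from -0.016 to 0.084, Prosbeta3 from -0.033 to 0.056, Prosbeta7 from -0.013 to 0.080 and Sem1 from -0.050 to 0.049. Prosalpha1 summed with Prosalpha1R was at 0.14.

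Whether the replicate numbers pair the libraries was not given in the sources used here. Same-numbered libraries deviated from their stage means with correlations of -0.0033, 0.15 and -0.26, and differently numbered ones with -0.24 to 0.29. With 3 libraries in each stage the deviations within a stage depend on one another, so these values cannot decide it. With the replicate block, 21 members rose, 15 of the 19S genes and 3 of the core among them, and of the 67 genes run the block ended 7 calls (Prosalpha5, Prosbeta1, Rpt2, Rpn11, Rpn3, Pomp and Ufd1), added 1 (Pngl) and turned no direction. Of all genes tested, fewer were called in either direction with the block than without it.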
